A study of Mus musculus with 45 samples.

Results

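Interferon-stimulated genes were examined in the livers of 45 female C57BL/6 mice given TCDD (dioxin), a persistent ligand of the aryl hydrocarbon receptor, or its sesame oil vehicle. The 44 listed members were chosen by name as genes that interferons induce, with earlier results of these data known. Their symbols were matched to the Ensembl genes of the count files. A match was found for 43 of the 44 among 39179 genes, and all 43 were among the 17464 genes with more than 4 reads in at least 1 mouse. Gbp6 had no match under the annotation used here and was not analysed. Each of 9 groups held 5 separate mice, gavaged every 4 days for 28 days with sesame oil or with TCDD in 8 doses, the lower 4 being 0.01, 0.03, 0.1 and 0.3 µg/kg and the upper 4 being 1, 3, 10 and 30 µg/kg, starting on postnatal day 28. No transgene or infection was part of the design, and all groups received the sesame oil. The labels also call the mice ovariectomized and the gavage daily, neither of which appears in the methods of the study. Between 11767284 and 56509899 reads per mouse fell on genes (median 17225047). Levels are given as CPM, the reads of a gene relative to all reads on genes, after TMM scaling, which corrects library totals for differences in composition.

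Interferons are secreted proteins that alarm neighbouring cells to viral infection. Type I and type III interferons act through receptors coupled to the kinases Jak1 and Tyk2, which lead to a complex holding Stat2 and Irf9 that binds the interferon-stimulated response element (ISRE) in the promoters of its targets. Type II interferon acts through another receptor and the gamma-activated site (GAS). In liver, hepatocytes, Kupffer cells, endothelial cells and infiltrating leukocytes can all express these targets, so in whole-liver RNA more cells of a type and more RNA per cell cannot be told apart.

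The promoters of 6 members are shown, which are among those whose values are described most closely here. They include members with and without the core letters of the ISRE in the window searched. Other forms of the ISRE and other regions were not searched. Each sequence is the 150 bases before the RefSeq start of the gene (GRCm38.p6), written 5′ to 3′ on the strand of the gene, and capitals mark the ISRE core GAAANNGAAA on either strand. The windows are chr19:34640739-34640888 (plus strand) for Ifit1, chr19:34550544-34550693 (plus) for Ifit2, chr4:156200819-156200968 (minus) for Isg15, chr8:71537473-71537622 (minus) for Bst2, chr11:58199406-58199555 (plus) for Igtp and chr11:83175036-83175185 (plus) for Slfn4.
Ifit1: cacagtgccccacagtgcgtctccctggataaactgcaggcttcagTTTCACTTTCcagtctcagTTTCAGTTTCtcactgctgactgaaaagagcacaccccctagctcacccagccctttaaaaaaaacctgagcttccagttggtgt
Ifit2: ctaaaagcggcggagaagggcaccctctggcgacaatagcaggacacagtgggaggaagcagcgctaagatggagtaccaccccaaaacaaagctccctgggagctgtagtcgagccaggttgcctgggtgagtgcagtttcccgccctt
Isg15: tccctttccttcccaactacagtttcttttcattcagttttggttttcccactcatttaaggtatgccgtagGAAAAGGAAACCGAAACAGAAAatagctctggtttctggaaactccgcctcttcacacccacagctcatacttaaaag
Bst2: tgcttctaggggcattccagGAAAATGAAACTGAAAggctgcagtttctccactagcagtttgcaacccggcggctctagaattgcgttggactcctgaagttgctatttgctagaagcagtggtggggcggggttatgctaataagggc
Igtp: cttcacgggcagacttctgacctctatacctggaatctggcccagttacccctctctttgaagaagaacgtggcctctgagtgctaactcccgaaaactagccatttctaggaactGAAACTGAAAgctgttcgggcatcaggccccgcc
Slfn4: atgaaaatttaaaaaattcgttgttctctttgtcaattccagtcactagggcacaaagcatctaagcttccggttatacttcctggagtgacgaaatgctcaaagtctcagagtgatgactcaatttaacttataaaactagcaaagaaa

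The Ifit1 window held 2 ISRE cores, the Isg15 window 3 that overlap each other, the Bst2 window 2 that overlap, and the Igtp window 1. No such letters occurred in the Ifit2 window, in the window of a second RefSeq start of Ifit2 or in the Slfn4 window. RefSeq promoters were found for 36 of the 44 members, and in windows from 250 bases before to 50 after the start, 20 of the 36 (55.6%) held the ISRE core on either strand, against 4.0% of 27025 genes. The GAS core TTCNNNGAA was present in 10 of the 36 (27.8%), against 9.6% of the genes. The dioxin response core GCGTG, the letters that the aryl hydrocarbon receptor and its partner recognize, was present in 14 of the 36 (38.9%), against 35.2% of the genes. The cores may overlap one another, and Usp18, Oas2, Mx1, Mx2, Rtp4, Dhx58, Gbp6 and Iigp1 had no entry.

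Members differed widely in their level in vehicle livers. Per kilobase of exon, Bst2 (tetherin, which holds budding virus at the cell surface) was the highest of the 43 at a mean of 129 CPM per kb. Iigp1, a GTPase that attacks the vacuoles of intracellular parasites, followed at 74.4 CPM per kb and Igtp of the same family at 20.1 CPM per kb. The signalling factors Stat2 (12.3 CPM per kb), Irf1 (9.95), Irf7 (7.84) and Irf9 (6.08) lay in between on the same scale. The lowest levels were those of Slfn4 (0.0563 CPM per kb), Oas3 (0.165) and Slfn1 (0.233), which rested on few reads. Slfn4 had 0 to 8 reads and Slfn1 3 to 10 reads in the vehicle mice. The genes of the interferons themselves were barely present. Ifna1, Ifna2, Ifne, Ifnl2 and Ifnl3 had 0 reads over the 45 mice and Ifna4 and Ifnb1 had 1 read each, where 3 reads would be 0.0531 to 0.255 CPM in a mouse. Ifng had group means between 0.00759 and 0.115 CPM and was not called at any dose tested.

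At 30 µg/kg, members moved in both directions. Slfn4, Slfn1, Usp18, Slfn2, Irf8, Ifit2, Oas3, Slfn5, Gbp2 and Oasl2 rose against vehicle, and Ifit1, Rtp4, Mx2, Dhx58, Xaf1 and Bst2 fell, with 27 members not passing the test. The log2 fold changes ran from -0.94 for Ifit1 to 3.23 for Slfn4, with a median of 0.10 over the 43 members and of 0.02 over all genes. The test was edgeR's quasi-likelihood F test with Benjamini-Hochberg adjusted p-values under 0.05. The 10 members called higher were 23.3% of the 43, beside 15.5% of all genes tested, and the 6 called lower were 14%, beside 14.1%. Counts by role, pathway list and cell type marker list at 30 µg/kg, given below, stand beside the same shares of all genes. All 5 mice lay above all 5 vehicle mice for 4 members (Usp18, Irf8, Slfn1 and Slfn4), beside 10.3% of all genes. All 5 lay below for 7 members (Ifit1, Isg15, Oasl1, Bst2, Rtp4, Dhx58 and Irf9), beside 9.57% of all genes. With libraries scaled by their totals alone, the median log2 fold change of all genes was 0.23, the members called were 15 higher and 1 lower, and 80.3% of all calls were higher, against 52.3% under TMM. Relative to the median of all genes, no member's log2 fold change moved by more than 0.02 between these scalings.

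**Figure D1:**
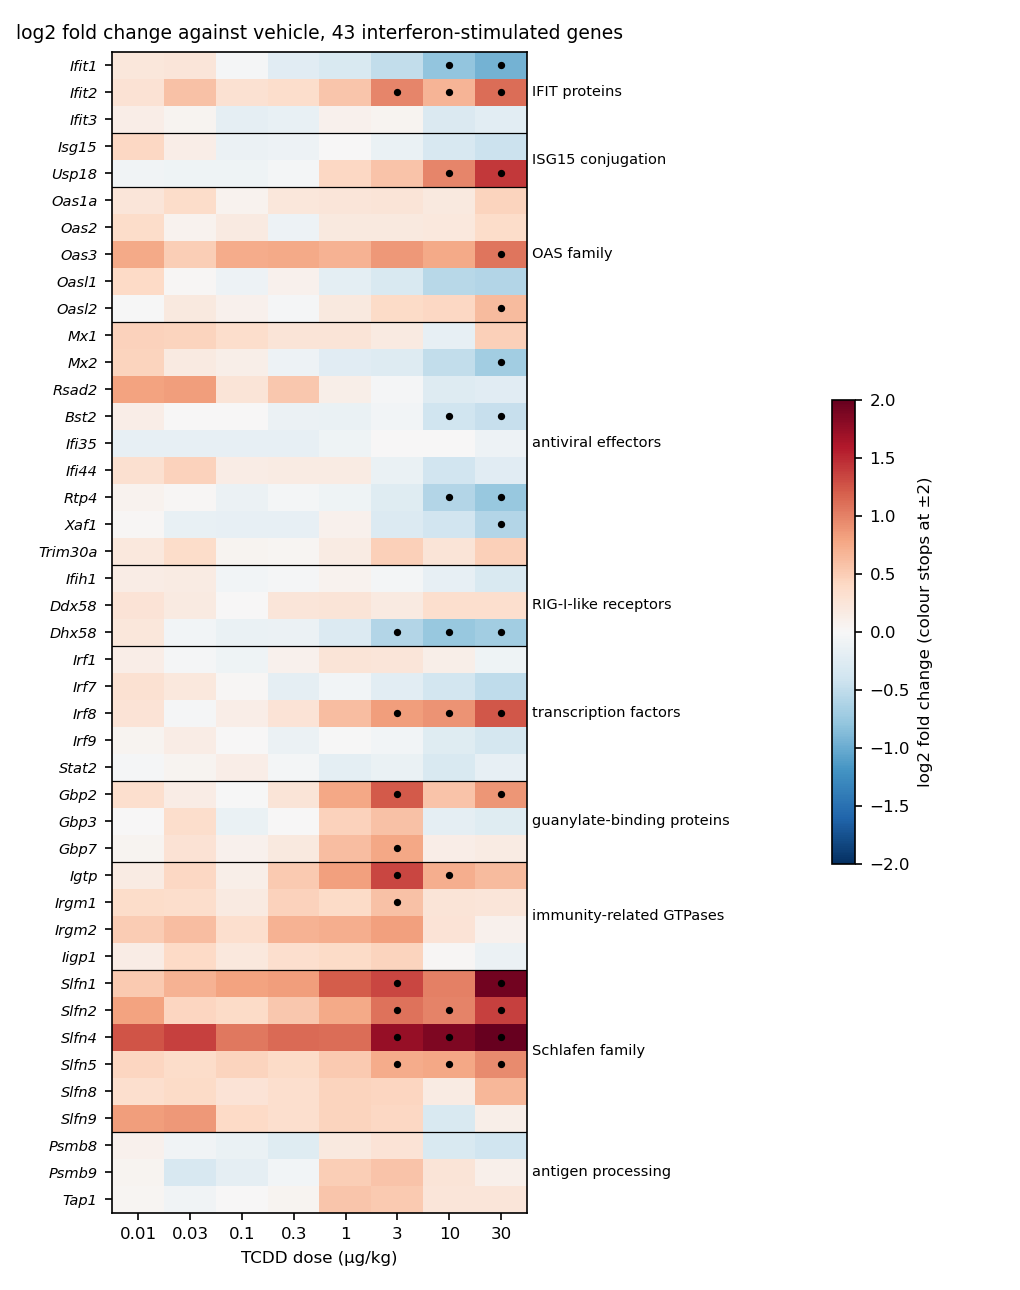
Colour gives the log2 fold change of each of the 43 members (one line each, grouped by role) against vehicle at the 8 doses in µg/kg on the horizontal axis, from blue (lower) through white to red (higher), and dots mark adjusted p-values under 0.05. Dots appear at 3 µg/kg and above, and within the IFIT proteins Ifit1 turns blue where Ifit2 turns red.

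At the 5 lowest doses no member was called by edgeR. All genes called there were 0% at 0.01, 0.0573% at 0.03, 0.0229% at 0.1, 0.464% at 0.3 and 1.76% at 1 µg/kg. The members with an unadjusted p under 0.05 were 7 at 0.01 (16.3%, beside 10.1% of all genes), 7 at 0.03 (16.3%, beside 11.7%), 2 at 0.1 (4.65%, beside 5.15%), 6 at 0.3 (14%, beside 10.5%) and 12 at 1 µg/kg (27.9%, beside 13%). DESeq2 called none except Igtp at 1 µg/kg. At 3 µg/kg 10 members rose (23.3%, beside 4.34% of all genes) and Dhx58 fell (2.33%, beside 3.2%). Those that rose were Ifit2, Irf8, Gbp2, Gbp7, Igtp, Irgm1, Slfn1, Slfn2, Slfn4 and Slfn5. At 10 µg/kg, 7 members rose (16.3%, beside 8.47%), namely Ifit2, Usp18, Irf8, Igtp, Slfn2, Slfn4 and Slfn5. The 4 that fell (9.3%, beside 7.47%) were Ifit1, Bst2, Rtp4 and Dhx58. The comparisons share the vehicle mice.

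The 3 IFIT genes, whose proteins bind viral RNA and curb its translation, lie within one stretch of chromosome 19 (GRCm38) at 34640871-34650009 (Ifit1), 34550694-34576419 (Ifit2) and 34583531-34588731 (Ifit3). Ifit1 was measured at 9.41, 14.4, 15.6, 9.28 and 12.5 CPM in the 5 vehicle mice and at 6.27, 6.70, 7.07, 5.29 and 6.65 CPM at 30 µg/kg. The groups did not overlap, and the level fell by 0.94 on the log2 scale (SE 0.19, adjusted p = 0.00024). Ifit2 was measured at 5.02, 5.98, 7.46, 4.15 and 6.07 CPM in vehicle mice and at 13.2, 16.8, 13.8, 6.41 and 11.6 CPM at 30 µg/kg. Only mouse 4 at 30 µg/kg lay among the vehicle mice, and the level rose by 1.11 (SE 0.24, adjusted p = 0.00036). Ifit3 took neither course, at 9.55, 13.9, 14.7, 8.54 and 15.6 CPM against 12.2, 11.5, 11.3, 7.24 and 11.8 CPM (log2 fold change -0.21, SE 0.24, adjusted p = 0.55).

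The opposite courses of Ifit1 and Ifit2 can be read within each mouse, where library depth is shared. The CPM of Ifit2 divided by that of Ifit1 was 0.414 to 0.534 in the vehicle mice, with a median of 0.478. At 1 µg/kg it lay between 0.642 and 0.957, at 3 µg/kg between 1.13 and 1.41, and at 10 µg/kg between 1.02 and 1.47. At 30 µg/kg it lay between 1.21 and 2.50, with a median of 1.95. From 1 µg/kg upward every mouse lay above the vehicle range, while each of the 4 lower doses overlapped it, with values between 0.368 and 0.987. The ratio was chosen after the fold changes were known and is given without a test.

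**Figure D2:**
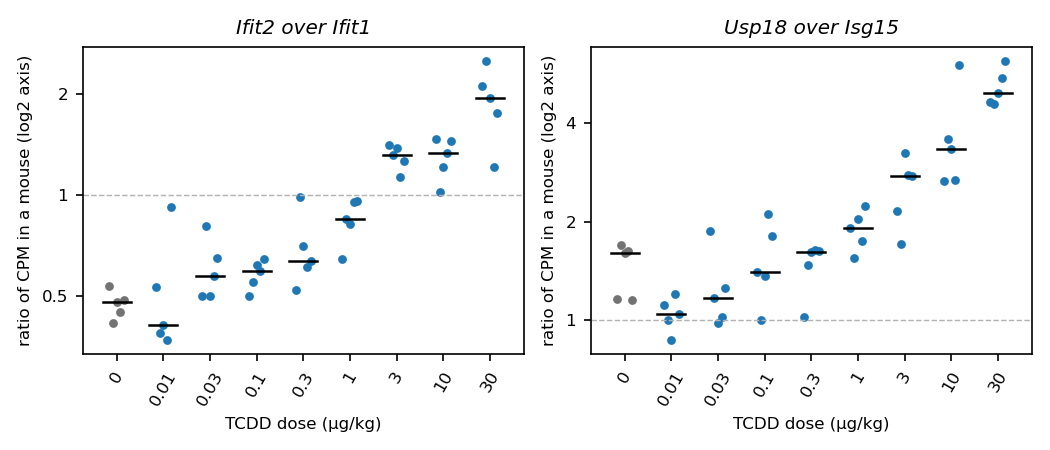
The ratio of 2 members' CPM within each mouse (points, log2 axis) is plotted against dose in µg/kg, with the group median as a bar, vehicle mice in grey and a dashed line at a ratio of 1. The median of Ifit2 over Ifit1 passes from 0.478 in vehicle to 1.95 at 30 µg/kg, and that of Usp18 over Isg15 from 1.60 to 4.95.

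Isg15, a ubiquitin-like protein that interferon couples to other proteins, and Usp18, the protease that removes it and also blocks signalling from the type I receptor, also moved apart within mice. Usp18 was measured at 13.5, 17.0, 19.2, 14.4 and 12.4 CPM in vehicle mice, at 20.7, 22.2, 27.3, 35.0 and 44.9 CPM at 10 µg/kg and at 40.8, 39.2, 41.2, 30.6 and 51.6 CPM at 30 µg/kg. Neither dose overlapped the vehicle mice, and the log2 fold changes were 0.97 (SE 0.21, adjusted p = 0.0010) and 1.41 (SE 0.21, adjusted p = 1.9e-06). Isg15 was measured at 11.7, 10.1, 12.0, 8.85 and 10.8 CPM in vehicle mice and at 8.79, 8.59, 8.31, 5.57 and 8.34 CPM at 30 µg/kg. These groups also did not overlap, but the log2 fold change of -0.43 (SE 0.23) had an adjusted p of 0.16. Usp18 divided by Isg15 was 1.16 to 1.70 within vehicle mice and 4.56 to 6.19 within mice at 30 µg/kg.

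The OAS family makes short oligoadenylates on double-stranded RNA, which switch on RNase L. At 30 µg/kg 2 of its 5 members rose and none fell. Oas3 was at 0.778, 1.15, 1.29, 1.24 and 1.37 CPM in vehicle mice and at 2.03, 3.38, 2.44, 0.836 and 3.85 CPM at 30 µg/kg, from 11 to 69 reads. Mouse 4 lay among the vehicle mice and the other 4 lay above them, with a log2 fold change of 1.07 (SE 0.36, adjusted p = 0.022). Oasl2 was at 4.599, 6.99, 5.92, 4.15 and 6.22 CPM against 8.88, 10.6, 9.58, 5.29 and 9.22 CPM, a log2 fold change of 0.64 (SE 0.24, adjusted p = 0.040) that lost its call in 7 of 10 fits without 1 mouse. Oasl1, an inactive relative that restrains Irf7 translation in mice, was at 6.58, 8.20, 5.98, 6.56 and 9.15 CPM against 5.36, 5.04, 3.85, 4.79 and 5.53 CPM. Its groups did not overlap, yet its log2 fold change of -0.58 (SE 0.25) had an adjusted p of 0.071. Oas1a (0.44) and Oas2 (0.36) did not pass the test.

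Among the 9 antiviral effectors, 4 fell at 30 µg/kg and none rose. Rtp4, a transporter chaperone with antiviral activity, was at 11.8, 16.7, 14.5, 13.1 and 17.8 CPM in vehicle mice and at 8.25, 8.93, 10.0, 8.02 and 8.34 CPM at 30 µg/kg. The groups did not overlap, and the level fell by 0.76 (SE 0.21, adjusted p = 0.0044). Bst2 was at 130.2, 109.6, 120.3, 98.0 and 122.6 CPM against 83.1, 79.1, 83.2, 85.1 and 93.0 CPM. That was a fall of all 5 mice below the vehicle range, by 0.46 on the log2 scale (SE 0.11, adjusted p = 0.0018). Mx2, a dynamin-like GTPase whose gene is defective in most laboratory strains and is annotated as a polymorphic pseudogene, was at 7.15, 5.34, 7.64, 4.77 and 6.12 CPM against 3.43, 3.38, 4.74, 4.79 and 2.65 CPM. It fell by 0.69 (SE 0.20, adjusted p = 0.0060), with 1 treated mouse just above the lowest vehicle mouse. Xaf1, which promotes apoptosis, was at 7.92, 10.5, 10.1, 6.68 and 8.90 CPM against 6.401, 5.84, 6.75, 4.29 and 6.17 CPM, with overlap, and fell by 0.58 (SE 0.23, adjusted p = 0.049), a call lost in 8 of 10 fits without 1 mouse. Mx1, Rsad2 (viperin), Ifi35, Ifi44 and Trim30a did not pass the test, with log2 fold changes between -0.23 and 0.48.

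Of the RIG-I-like receptors, which sense viral RNA in the cytoplasm, only Dhx58 passed the test. Dhx58 (LGP2), which modulates the other 2 receptors, was at 7.85, 9.41, 8.26, 7.80 and 10.1 CPM in vehicle mice. It was at 7.75, 6.81, 4.73, 4.00 and 5.59 CPM at 3 µg/kg, at 4.71, 4.59, 5.13, 6.96 and 4.28 CPM at 10 µg/kg and at 5.05, 5.90, 5.87, 4.23 and 5.85 CPM at 30 µg/kg. No mouse of these 3 doses reached the vehicle range, with log2 fold changes of -0.59 (SE 0.18, adjusted p = 0.031), -0.76 (SE 0.18, adjusted p = 0.0020) and -0.69 (SE 0.18, adjusted p = 0.0027). Ifih1 (MDA5) had a log2 fold change of -0.30 (SE 0.14, adjusted p = 0.096) at 30 µg/kg and Ddx58 (RIG-I) one of 0.33 (SE 0.14, adjusted p = 0.071). Dhx58 shares 141 of its 3272 exon bases with a gene on the opposite strand. Members with larger overlaps of this kind included Slfn5 (559 of 6326 bases), Psmb8 (498 of 3381) and Ifi35 (290 of 1727). Whether counting used strand is not given in the sources used here.

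Irf8, a factor that myeloid and dendritic cells require, was the 1 transcription factor of 5 that passed the test at 30 µg/kg. Its level was 5.09, 4.26, 4.62, 4.21 and 5.26 CPM in vehicle mice, 14.5, 8.11, 5.82, 5.86 and 7.72 CPM at 3 µg/kg, and 10.8, 12.6, 10.9, 6.52 and 14.8 CPM at 30 µg/kg. The treated mice all lay above the vehicle mice at both doses, and the log2 fold changes were 0.83 (SE 0.24, adjusted p = 0.028) and 1.24 (SE 0.24, adjusted p = 0.00012). The partners of the interferon complex did not follow it. Stat2, the most abundant of the 5 per kilobase, was at 68.9, 58.2, 81.0, 77.8 and 79.7 CPM in vehicle mice and at 65.1, 65.3, 73.6, 54.5 and 69.2 CPM at 30 µg/kg (log2 fold change -0.16, SE 0.12, adjusted p = 0.34). Irf9, Irf7 and Irf1 had log2 fold changes of -0.35, -0.51 and -0.08 there, with adjusted p-values of 0.053, 0.063 and 0.83.

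The guanylate-binding proteins and the immunity-related GTPases, large GTPases that interferon gamma induces against intracellular pathogens, all had their highest group mean at 3 µg/kg. At 3 µg/kg 4 of these 7 genes rose, beside 4.34% of all genes. At 30 µg/kg only Gbp2 did, beside 15.5% of all genes. Igtp was at 34.6, 36.2, 40.9, 41.5 and 49.8 CPM in vehicle mice, at 136.3, 157.6, 53.2, 53.7 and 113.9 CPM at 3 µg/kg, and at 75.9, 47.96, 67.96, 49.3 and 74.9 CPM at 30 µg/kg. The 5 mice at 3 µg/kg all exceeded the vehicle mice, but 3 of them lay far above the other 2. The log2 fold changes were 1.34 (SE 0.26, adjusted p = 0.00036) at 3 µg/kg, 0.73 (SE 0.25, adjusted p = 0.040, a call lost in 7 of 10 fits without 1 mouse) at 10 µg/kg and 0.64 (SE 0.25, adjusted p = 0.052) at 30 µg/kg. Igtp and Irgm2 are annotated with 162 shared exon bases on 1 strand. Reads that could belong to either gene are entered as ambiguous and left out of both counts.

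Gbp2 split into the same mice, at 24.9, 24.6, 6.45, 7.09 and 16.9 CPM at 3 µg/kg against 6.79, 7.12, 5.98, 7.24 and 6.92 CPM in vehicle mice (log2 fold change 1.23, SE 0.34, adjusted p = 0.020). At 30 µg/kg Gbp2 was at 14.3, 15.8, 10.9, 6.69 and 14.9 CPM (log2 fold change 0.88, SE 0.34, adjusted p = 0.049), a call lost in 9 of 10 such fits. Gbp7, the highest of the 3 measured guanylate-binding proteins per kilobase, had a log2 fold change of 0.77 (SE 0.22, adjusted p = 0.023) at 3 µg/kg and of 0.16 (adjusted p = 0.63) at 30 µg/kg. Irgm1 had one of 0.59 (SE 0.14, adjusted p = 0.0075) at 3 µg/kg and of 0.24 (adjusted p = 0.22) at 30 µg/kg. Iigp1, Irgm2 and Gbp3 had log2 fold changes of 0.45, 0.82 and 0.59 at 3 µg/kg that did not pass the test. The count at 3 µg/kg depended on single mice: 3 of the 10 members called higher remained without mouse 1 of that group (Ifit2, Igtp and Irgm1), and 5 or 6 without its mouse 5 or without vehicle mouse 1, 2 or 4.

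**Figure D3:**
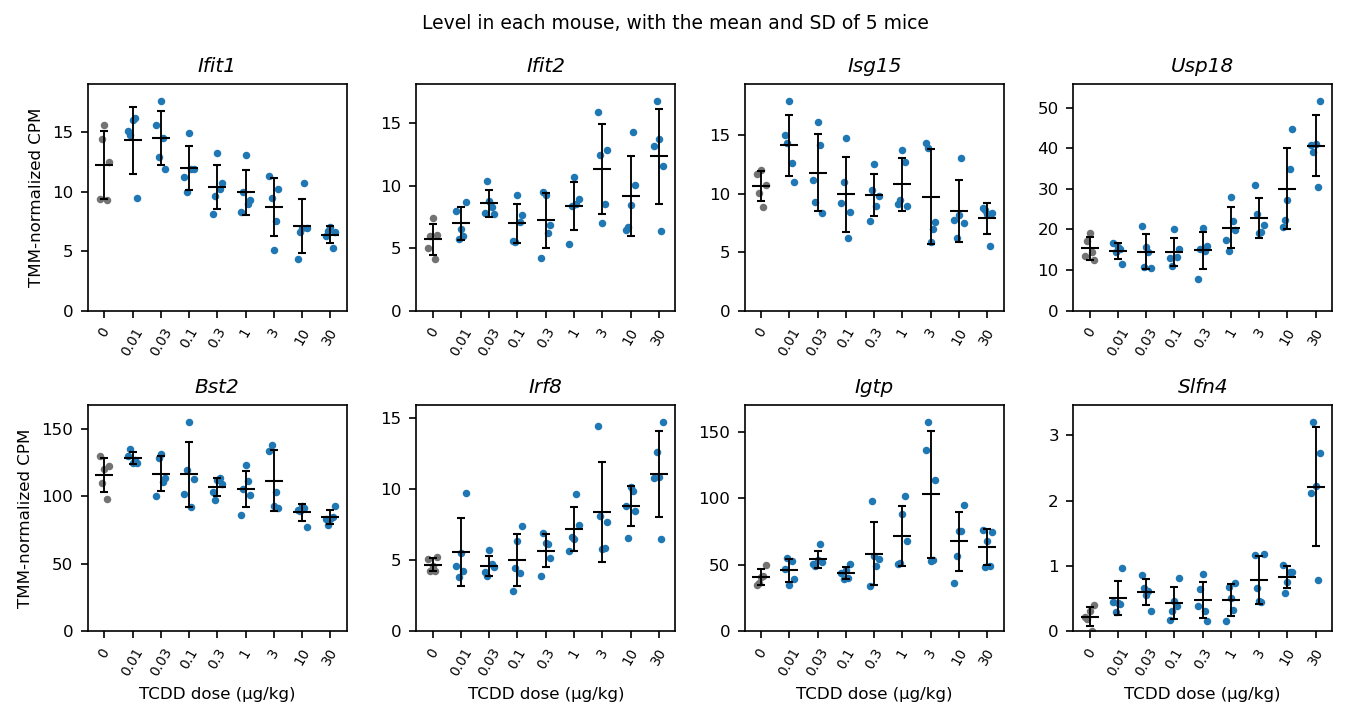
TMM-normalized CPM of 8 members in each mouse (points, vehicle in grey) is plotted against dose in µg/kg, with the mean and SD of 5 mice as bars and axes that start at 0. Usp18, Irf8 and Slfn4 are highest at 30 µg/kg, Ifit1 and Bst2 are lowest there, and Igtp peaks at 3 µg/kg with 2 mice near the vehicle level.

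The Schlafen family, growth regulators of T cells and myeloid cells that interferon induces, gave the strongest rise. At 30 µg/kg 4 of its 6 members rose and none fell. Slfn4 was at 0.212, 0.191, 0.308, 0 and 0.404 CPM in vehicle mice, at 1.17, 0.662, 0.456, 0.451 and 1.19 CPM at 3 µg/kg, and at 2.12, 3.21, 2.23, 0.780 and 2.73 CPM at 30 µg/kg, from 14 to 63 reads. Every mouse at 3, 10 and 30 µg/kg exceeded every vehicle mouse, and the log2 fold changes were 1.74 (SE 0.49, adjusted p = 0.021), 1.86 (SE 0.49, adjusted p = 0.0062) and 3.23 (SE 0.46, adjusted p = 5.1e-07). Slfn1, which at most 53 reads covered in a mouse, rose by 1.93 at 30 µg/kg (SE 0.40, adjusted p = 0.00025). Slfn2, whose protein keeps T cells quiescent, was at 1.77, 1.59, 3.51, 3.22 and 2.83 CPM in vehicle mice and at 5.14, 8.47, 7.46, 3.06 and 9.62 CPM at 30 µg/kg (log2 fold change 1.37, SE 0.35, adjusted p = 0.0022). Mouse 4 again lay among the vehicle mice. Slfn5 was at 5.87, 6.93, 7.64, 5.20 and 5.21 CPM against 12.6, 15.0, 14.3, 6.74 and 10.3 CPM (log2 fold change 0.94, SE 0.23, adjusted p = 0.0015), with mouse 4 alone inside the vehicle range. Slfn8 (0.67) and Slfn9 (0.11), related neighbours for which reads that map to both would not be counted, did not pass the test.

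No antigen processing member was called at 3, 10 or 30 µg/kg. The immunoproteasome subunits Psmb8 and Psmb9 and the peptide transporter Tap1 had log2 fold changes of -0.40, 0.10 and 0.24 at 30 µg/kg, none of which passed the test. Psmb8 was at 27.4, 28.9, 28.4, 23.02 and 31.5 CPM in vehicle mice and at 19.2, 17.9, 24.5, 17.6 and 26.3 CPM at 30 µg/kg, with overlap (SE 0.19, adjusted p = 0.10), and it was called among the 9 groups (adjusted p = 0.035).

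The test over dose rank, a line through the 9 groups numbered 0 to 8, used all 45 mice. It called 11 members higher with dose (25.6%, beside 20.8% of all genes) and 14 lower (32.6%, beside 19.7%). The lower members included, besides those that fell at 30 µg/kg, Isg15, Oasl1, Rsad2, Ifi44, Ifih1, Irf7, Irf9 and Stat2. Isg15 fell by 0.07 on the log2 scale per dose step (SE 0.02, adjusted p = 0.0033), Irf7 by 0.08 (SE 0.02, adjusted p = 0.00039) and Stat2 by 0.04 (SE 0.01, adjusted p = 0.0085). Ifit1 fell by 0.14 per step (SE 0.02, adjusted p = 1.8e-08). The largest rise was that of Slfn4, at 0.27 per step (SE 0.04, adjusted p = 1.0e-06). Differences among the 9 groups of any shape were called for 21 members (48.8%, beside 28.8% of all genes). Scaled by library totals alone, which moved the median of all genes to 0.23 at 30 µg/kg, the dose rank calls were 18 higher and 9 lower.

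Between 10 and 30 µg/kg no member differed by edgeR, beside 0.613% of all genes. An unadjusted p under 0.05 was reached by Usp18, Slfn1 and Slfn4, 6.98% of the members beside 7.56% of all genes, and DESeq2 called Slfn4 alone. Slfn4 had a log2 fold change of 1.37 between these doses (SE 0.37, adjusted p = 0.075). It passed the test without mouse 4 of the 30 µg/kg group.

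Genes around the members in the same pathway were taken from lists chosen with earlier results of these data known. The counts below are small, and at 30 µg/kg 15.5% of all genes were called higher and 14.1% lower. Of the 6 interferon receptor subunits, Ifnlr1, the specific subunit of the type III receptor, was at 0 to 0.354 CPM in vehicle mice and at 0.613 to 1.37 CPM at 30 µg/kg, and rose by 2.58 (SE 0.56, adjusted p = 0.00042). Named after their values were seen, Ifnar2 of the type I receptor had a log2 fold change of -0.98 (SE 0.12, adjusted p = 1.8e-08) and Ifnar1 one of -0.05 (adjusted p = 0.79). None of the 8 genes of JAK-STAT signalling rose at 30 µg/kg and 3 fell (Jak1, Irf2 and Irf3). Of the 6 negative regulators, 2 rose and 1 fell, with Socs1, an inhibitor of Jak kinases, at 0 to 0.308 CPM in vehicle mice and 0.111 to 2.08 CPM at 30 µg/kg (log2 fold change 2.41, SE 0.73, adjusted p = 0.010). Among 10 nucleic acid sensing adaptors 4 rose and 2 fell, and the rises of at least 1 on the log2 scale were those of the adaptor Tmem173 (STING, 1.25) and the endosomal receptors Tlr7 (1.17) and Tlr9 (1.99).

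Other interferon-induced genes also moved in both directions. Of 38 measured, 11 rose at 30 µg/kg (28.9%, beside 15.5% of all genes) and 5 fell (13.2%, beside 14.1%). The rises of at least 1 on the log2 scale were Tgtp2 (1.76, a T cell GTPase), Gbp4 (1.41), Cxcl10 (1.39, a chemokine that draws T cells), Ifit1bl1 (1.25) and Gbp8 (1.04). Cxcl10 was at 1.34, 2.04, 2.40, 2.97 and 2.53 CPM in vehicle mice and at 8.52, 7.61, 4.67, 2.06 and 6.89 CPM at 30 µg/kg. Mouse 4 lay within the vehicle range and the others above it. Ifitm3, a membrane protein that blocks viral entry, was at 302.4, 258.3, 290.0, 265.3 and 305.5 CPM against 84.1, 84.9, 122.7, 108.3 and 104.6 CPM, and fell by 1.49 (SE 0.14, adjusted p = 1.5e-11). Ifi27 fell by 1.38 (SE 0.14, adjusted p = 7.6e-11). Among 12 further antigen processing genes none rose and 6 fell, the proteasome activator Psme1 by 1.05 (SE 0.12, adjusted p = 7.1e-09).

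The mice of a group differed among themselves, and members tended to deviate together. The highest mouse exceeded the lowest by a median of 1.54 times over 42 members in the vehicle group and by 2.27 times over 43 members at 0.3 µg/kg. Mouse 4 at 30 µg/kg was the lowest of its group for 35 of the 43 members, and mouse 1 at 3 µg/kg was the highest for 36. Across the 45 mice, as deviations from the group means, 864 of the 903 pairs of members had a Pearson correlation above 0, with a median of 0.48. The closest pairs were Gbp3 with Gbp7 (0.88), Irf7 with Gbp3 (0.87), Rtp4 with Xaf1 (0.87), Tap1 with Irgm2 (0.86), Oas2 with Trim30a (0.86) and Oas3 with Oasl2 (0.86). Stat2 stood apart, with a median of -0.09 over its pairs. The pairs share library and depth, and these values are a description without a test. Pairs of other genes were not examined.

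Leukocyte markers moved with dose and with several members. The summed level of 5 general leukocyte markers (Ptprc, Cd53, Laptm5, Coro1a and Cd52) was 23.2 to 40.9 CPM in vehicle mice, between 45.04 and 117.3 CPM in the group given 3 µg/kg and between 39.1 and 93.8 CPM in the group given 30 µg/kg, and all 5 markers rose at 30 µg/kg. Ptprc was at 9.41, 5.98, 10.5, 8.11 and 12.4 CPM in vehicle mice and at 23.1, 25.6, 26.3, 12.5 and 22.7 CPM at 30 µg/kg (log2 fold change 1.25, SE 0.33, adjusted p = 0.0033). The lowest marker sum at 30 µg/kg was that of mouse 4 and the highest at 3 µg/kg that of mouse 1. Mouse 5 at 0.01 µg/kg stood apart with a leukocyte sum of 125.9 CPM. It was the highest of its group for 13 of the 43 members and the lowest for 16. Its summed CPM of the members was 1293, against 1416 to 1558 in the other mice of that group. That sum is weighted towards the abundant members, and members with few reads hardly enter it. No member was called at that dose, beside 0% of all genes. At 30 µg/kg the lists with markers called higher were dendritic cells (3 of 5), neutrophils (3 of 4), B cells (2 of 4), macrophages and Kupffer cells (2 of 8) and T and NK cells (2 of 8), and the neutrophil marker Ly6g had 1 read over all mice. Endothelial (3 of 4) and stellate cell markers (2 of 4) also rose, 4 of 6 hepatocyte markers fell, and Alb did not pass the test (log2 fold change -0.08, adjusted p = 0.65).

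Within dose groups, members followed the mean log2 CPM of these 5 leukocyte markers to very different degrees. Over 45 mice, as deviations from group means, Irf8 had r = 0.89 and rho = 0.83 and Slfn2 r = 0.88 and rho = 0.82, each with a permutation p of 1e-05, the smallest that 100000 permutations within groups can give, and adjusted p-values of 3.9e-05 for r and 5.4e-05 for rho. Usp18 had r = 0.34 (permutation p = 0.018, adjusted p = 0.030) and rho = 0.42 (permutation p = 0.0058, adjusted p = 0.0093). For Ifit1 the values were r = 0.14 (permutation p = 0.41, adjusted p = 0.44) and rho = 0.28 (permutation p = 0.070, adjusted p = 0.084), and for Ifih1 r = 0.02 (permutation p = 0.92, adjusted p = 0.92) and rho = -0.05 (permutation p = 0.78, adjusted p = 0.80). Of the 43 relations, 30 passed an adjusted p of 0.05 by r and 35 by rho. Other genes were not put through this test, so no share over all genes stands beside these counts. Leaving out the 2 mice farthest from their group means in the markers (mouse 4 at 30 µg/kg and mouse 5 at 0.01 µg/kg) gave r = 0.86 for Irf8, 0.85 for Slfn2, 0.47 for Usp18, 0.32 for Ifit1 and 0.12 for Ifih1. With all 45 mice, the median r was 0.66 over the 10 members that rose at 30 µg/kg, 0.38 over the 6 that fell and 0.37 over the other 27. Without those 2 mice these medians were 0.64, 0.5 and 0.48.

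**Figure D4:**
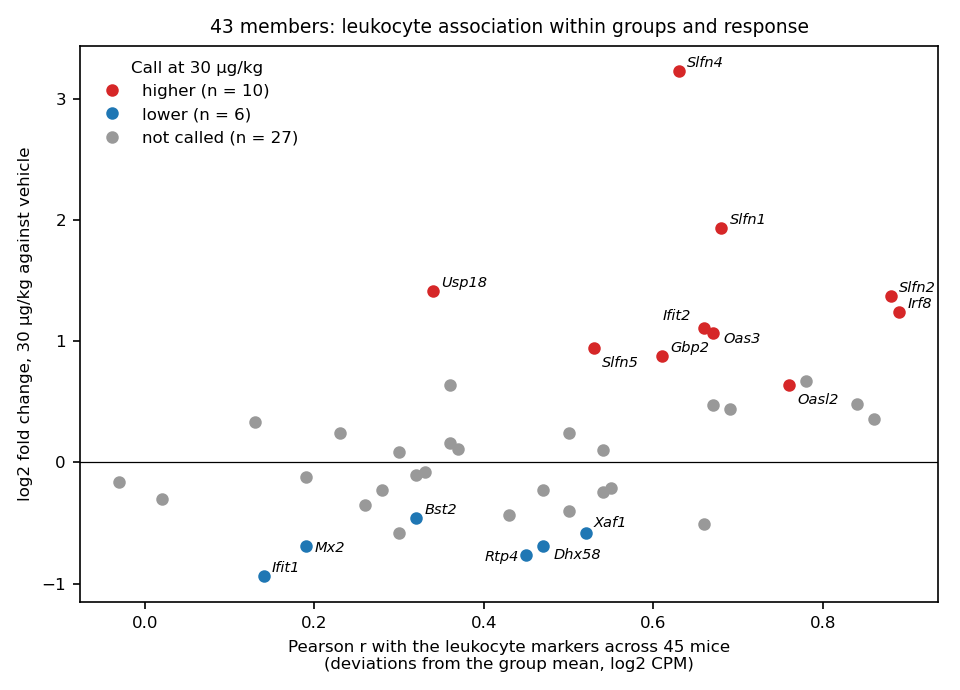
Each point is a member, placed by its Pearson r with the leukocyte markers across 45 mice within dose groups (horizontal) and by its log2 fold change at 30 µg/kg (vertical), with red for called higher, blue for called lower and grey for not called. Irf8 and Slfn2 lie at the right near 0.9, Usp18 rises at 0.34, and the 6 blue points lie between 0.14 and 0.52.

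A fit with the leukocyte marker level as a further term, added after the data were seen, changed both counts at 30 µg/kg. Members called higher went from 10 to 2, Slfn4 (log2 fold change 2.07, SE 0.43, adjusted p = 0.00038) and Usp18 (1.09, SE 0.24, adjusted p = 0.0011). Those called lower went from 6 to 14 (32.6%), the 6 of the fit without the term among them, with Ifit3, Isg15, Oas2, Oasl1, Irf7, Irf9, Gbp3 and Psmb8 added. Of all genes, that fit called 1354 higher (7.75%) and 1526 lower (8.74%), where the fit without the term called 2700 and 2467. Ifit1 kept nearly its value, at -1.05 (SE 0.23, adjusted p = 0.00092), and Irf7 reached -1.09 (SE 0.20, adjusted p = 6.6e-05). Irf8 went to 0.39 (adjusted p = 0.058), Slfn2 to 0.14 (adjusted p = 0.70) and Ifit2 to 0.47 (adjusted p = 0.15). The markers themselves rose, so the term and the dose share part of their variation, and the part of leukocytes in the members' levels was not tested otherwise.

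**Figure D5:**
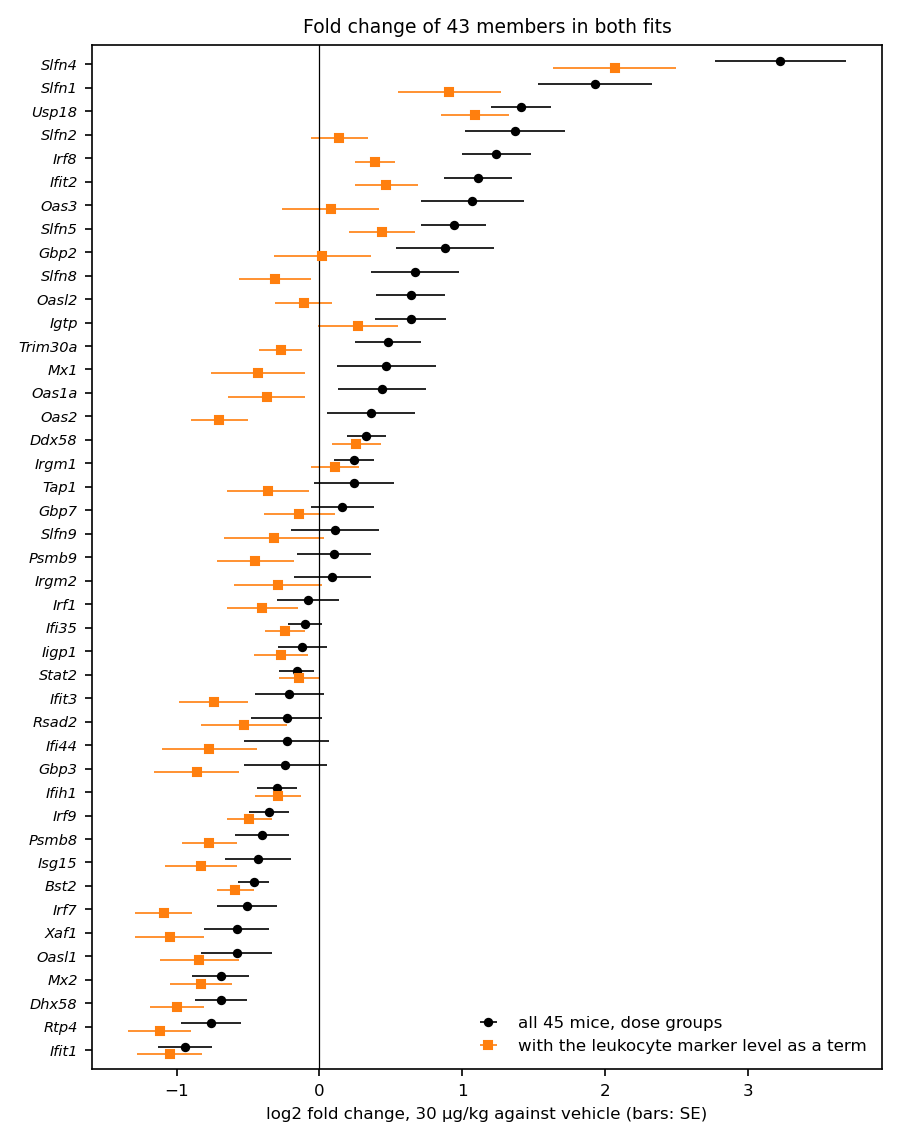
For each of the 43 members, the log2 fold change at 30 µg/kg against vehicle is shown from the fit on dose groups (black circles) and from the fit with the leukocyte marker level as a term (orange squares), with SE bars. Slfn4 and Usp18 stay well right of 0 in both, Irf8 and Slfn2 shift towards 0, and Ifit1 stays near -1.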

How the data were processed

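Liver RNA of 45 mice was sequenced, and the authors deposited 1 file of raw counts per mouse, whole numbers of reads per Ensembl gene with no normalization. The submitters' processing notes name FastQC 0.11.2, TopHat 1.4.1, SAMtools 0.1.19, HTSeq 0.6.1 and DESeq, and the build was GRCm38. The strand setting of the counting is not given in the sources used here. Reads that map to several genes were not counted, which can lower closely related copies (Slfn8 and Slfn9, Ifit3 and its neighbour copy, the Oas1 genes). The reads lost by these genes were not examined. Rows that name no gene held 45.3 to 60.9% of the entries and were left out of library sizes, which then were 11767284 to 56509899 reads, so that 3 reads, the limit that a count of 0 allows, were 0.0531 to 0.255 CPM (counting error only). No 2 files were identical, and the smallest chi-square per degree of freedom between mice of a group was 13.7.

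Genes with more than 4 reads in any mouse (17464 of 39179) were fitted in 1 edgeR 4.0.16 quasi-likelihood model over all 45 mice (R 4.3.3, TMM factors 0.927 to 1.175), with Benjamini-Hochberg adjustment over all genes within each contrast. The SE is the log2 fold change divided by the square root of F. The script was tested on simulated data. Python 3.11.15 gave the CPM, ratios and correlations (pandas 2.3.3, scipy 1.17.1, numpy 2.4.6) and, through matplotlib 3.10.9, the plots. Gene positions and exon lengths came from GENCODE (GRCm38), and promoters from RefSeq (GRCm38.p6).

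Groups and doses came from the sample labels, and mice are numbered in accession order. Members named with values are those called at 10 or 30 µg/kg and, per role, the highest in mean CPM and the largest change at 30 µg/kg, and pathway genes are those called at 30 µg/kg with a log2 fold change of at least 1 in size. Others named were chosen after their values were seen. The members and lists were chosen with earlier results of these data known. Alternatives were DESeq2 1.42.0, its size factors, no scaling, 2 other filters, only the groups compared, a fold of 2, each mouse left out and, added after seeing the data, a leukocyte term.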

Additional observations from a re-analysis of the deposited data

Results flagged for a closer look

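Of 177 sets of 5 mice examined, 11 held a mouse whose gap to the nearest other exceeded 0.71 of the range, Dixon's 95% critical value, where chance gives about 1 in 20. Among members, mouse 4 at 30 µg/kg was lowest for Ifit3 at 7.24 CPM, with the others at 11.3 to 12.2 CPM, and for Oasl2 at 5.29 CPM, with the others at 8.88 to 10.6 CPM. That mouse also had the lowest leukocyte marker sum of its group. Ifih1 at 30 µg/kg was lowest in mouse 5 at 37.8 CPM, against 45.97 to 48.4 CPM. Bst2 at 10 µg/kg was lowest in mouse 5 at 77.5 CPM, against 89.1 to 93.2 CPM. Slfn1 in vehicle was lowest in mouse 2 at 0.191 CPM, against 0.425 to 0.557 CPM, and the same mouse was lowest in the summed T and NK cell markers at 1.97 CPM, against 3.58 to 4.45 CPM.

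Summed neutrophil markers were highest in mouse 5 at 0.01 µg/kg at 18.2 CPM, against 1.33 to 1.82 CPM, and in mouse 1 at 3 µg/kg at 14.3 CPM, against 2.84 to 3.44 CPM. Mouse 1 at 3 µg/kg was also the highest of its group for 36 of 43 members. Summed hepatocyte markers at 30 µg/kg were highest in mouse 5 at 154800 CPM, against 102900 to 115200 CPM. At 0.3 µg/kg summed dendritic cell markers were lowest in mouse 1 at 1.18 CPM, against 1.93 to 2.20 CPM, and summed stellate cell markers in mouse 4 at 229.9 CPM, against 311.0 to 333.6 CPM. The part of these mice in the members' levels was not tested beyond leaving each out.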

How the results depend on the processing

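Without scaling beyond library size, members called lower were 0 at 3, 2 at 10 and 1 at 30 µg/kg (Ifit1), and the dose rank calls were 18 higher and 9 lower, and 6 members turned from negative to positive at 30 µg/kg, among the named ones Ifit3 (0.01), Stat2 (0.06) and Iigp1 (0.10) and besides them Ifi35, Ifi44 and Irf1. That setting moved the median of all genes to 0.23 at 30 µg/kg. Of 17464 genes it called 293 lower at 3, 728 at 10 and 1222 at 30 µg/kg. All-gene counts over dose rank are not given for it. With a fold of at least 2 the calls were 5 higher and 0 lower at 3 µg/kg, 1 and 0 at 10 µg/kg, and 7 and 0 at 30 µg/kg. Fitting only the 2 groups compared gave 13 higher and 12 lower at 30 µg/kg, beside 2824 higher and 2609 lower of 17439 genes. With the leukocyte term, 1 was higher and 3 lower at 3 µg/kg, 1 and 9 at 10 µg/kg, 2 and 14 at 30 µg/kg, and 1 differed between 30 and 10 µg/kg, as also with DESeq2 (1). Of 17464 genes, the fit with that term called 440 higher and 315 lower at 3 µg/kg and 791 and 738 at 10 µg/kg. With that term 11 members turned from positive to negative, among the named ones Oasl2 (-0.11) and Gbp7 (-0.14) and besides them Oas1a, Oas2, Mx1, Trim30a, Irgm2, Slfn8, Slfn9, Psmb9 and Tap1. The cause was not tested.

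Leaving out 1 mouse gave 3 to 11 higher and 0 to 1 lower at 3 µg/kg, 3 to 7 and 3 to 5 at 10 µg/kg, 7 to 13 and 5 to 6 at 30 µg/kg, 17 to 24 among the 9 groups, 10 to 14 higher and 13 to 15 lower over dose rank, and 0 to 1 between 30 and 10 µg/kg. At 3 µg/kg Dhx58 lost its call without vehicle mouse 2 or 5 or treated mouse 3, 4 or 5. At 10 µg/kg the higher calls were 4 without vehicle mouse 1, 2 or 4 or treated mouse 3 or 4, and 3 without treated mouse 5. The calls lost most often in the 10 fits at 3 µg/kg were those of Slfn1 (8), Slfn2 (8) and Slfn5 (6). At 10 µg/kg they were those of Slfn2 (8), Ifit2 (7), Igtp (7) and Rtp4 (7). At 30 µg/kg they were those of Gbp2 (9), Xaf1 (8) and Oasl2 (7). At 30 µg/kg Oas3 lost its call without vehicle mouse 1 or treated mouse 2 or 5, and 12 of the 16 calls were kept in all 10 fits. No paired analysis was made, since the groups held separate mice. The labels carry no replicate numbers, and mice are numbered in accession order. Depth limits Slfn4, Slfn1 and Oas3 most, and their fold changes rest on few reads.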
